A study of Mus musculus with 6 samples.

Results

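The miR-99/100 and miR-125 families were followed in mouse testicular peritubular myoid (PTM) cells, the contractile cells that line the seminiferous tubules. The 9 miRNAs were taken by name: mmu-miR-99a-5p, mmu-miR-99b-5p, mmu-miR-99b-3p, mmu-miR-100-5p, mmu-miR-125a-5p, mmu-miR-125a-3p, mmu-miR-125b-5p, mmu-miR-125b-1-3p and mmu-miR-125b-2-3p. All 9 were found among the 1573 rows of known miRNAs in the count table, and all 9 passed the filter on low counts that left 616 miRNAs for testing. Small RNA libraries came from 3 samples of ET1-treated cells, given 50 nM endothelin-1 for 5 min, and from 3 samples of untreated cells. Endothelin-1 is a peptide that makes smooth muscle and myoid cells contract. Both groups were primary cells of the C57BL/6J strain, grown in DMEM/F12 with fetal bovine serum, with no genetic change named. The labels do not say whether the libraries of a group came from separate cultures or animals, so each p-value is set against differences among libraries that may be only technical.

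MicroRNAs are short RNAs that hold down the messenger RNAs they pair with, mainly through the seed, bases 2 to 8 of the miRNA. Each hairpin precursor has a 5p and a 3p arm, and here the 5p arm is the usual guide. The miR-125 miRNAs are the vertebrate relatives of lin-4, the first miRNA found in Caenorhabditis elegans, where lin-4 and let-7 time development. In mammals a miR-99/100 gene, a let-7 gene and a miR-125 gene lie together at each of 3 loci. In human cells the miR-99/100 family is known to repress the growth kinase mTOR, and miR-125b to repress p53. In mice miR-125a is known for raising the number of blood stem cells.

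The sequences below are the guide arms, shown because they define the seed families, and the 3p arms that tell the miR-125 genes apart. They are the RefSeq mature miRNAs of GRCm38.p6, printed 5′ to 3′ with the seed in capitals, and all 9 miRNAs had a RefSeq entry.
miR-99a-5p: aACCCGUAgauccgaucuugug
miR-99b-5p: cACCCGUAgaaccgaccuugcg
miR-100-5p: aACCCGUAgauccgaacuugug
miR-125a-5p: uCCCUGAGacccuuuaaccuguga
miR-125b-5p: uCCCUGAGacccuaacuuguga
miR-351-5p: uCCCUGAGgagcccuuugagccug
miR-125a-3p: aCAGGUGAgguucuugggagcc
miR-125b-1-3p: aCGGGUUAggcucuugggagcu
miR-125b-2-3p: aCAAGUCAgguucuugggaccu

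The seed ACCCGUA was held by 3 RefSeq miRNAs of the mouse, which were miR-99a-5p, miR-99b-5p and miR-100-5p. Counted from 1 at the 5′ end, miR-100-5p and miR-99a-5p differed by the single substitution A16U and were the same at 21 of 22 positions. From miR-100-5p to miR-99b-5p the substitutions were A1C, U11A, A16C and U21C. The seed CCCUGAG was held by 5 RefSeq miRNAs, of which miR-125a-5p, miR-125b-5p and miR-351-5p had a row in the count table. miR-125a-5p and miR-125b-5p shared their first 13 and last 5 bases. miR-125b-5p has the same sequence at both of its genes, so its tags cannot be split between them. The 3p arms of those genes differ, with G3A, G4A, U7C, C11U and G20C from miR-125b-1-3p to miR-125b-2-3p, so each of these arms names its gene.

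All 9 precursors lie on the plus strand (GRCm38). The chromosome 17 cluster holds Mir99b at chr17:17830188-17830257, Mirlet7e at chr17:17830352-17830444 and Mir125a at chr17:17830812-17830879. It spans 692 bases in the protein-coding gene Spaca6, where GENCODE puts Mir99b and Mirlet7e in introns and Mir125a in an intron or an exon, by transcript. The chromosome 9 cluster holds Mir100 at chr9:41531425-41531504, Mirlet7a-2 at chr9:41536716-41536811 and Mir125b-1 at chr9:41581926-41582002. It spans 50578 bases, within introns of the noncoding genes Gm49317 and 3110039I08Rik, and Mir125b-1 also lies in an exon of Gm28119. The chromosome 16 cluster holds Mir99a at chr16:77598936-77599000, Mirlet7c-1 at chr16:77599657-77599750 and Mir125b-2 at chr16:77646273-77646343. It spans 47408 bases in introns of Mir99ahg, and Mir125b-2 also lies in an exon of C130023A14Rik.

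**Figure D1:**
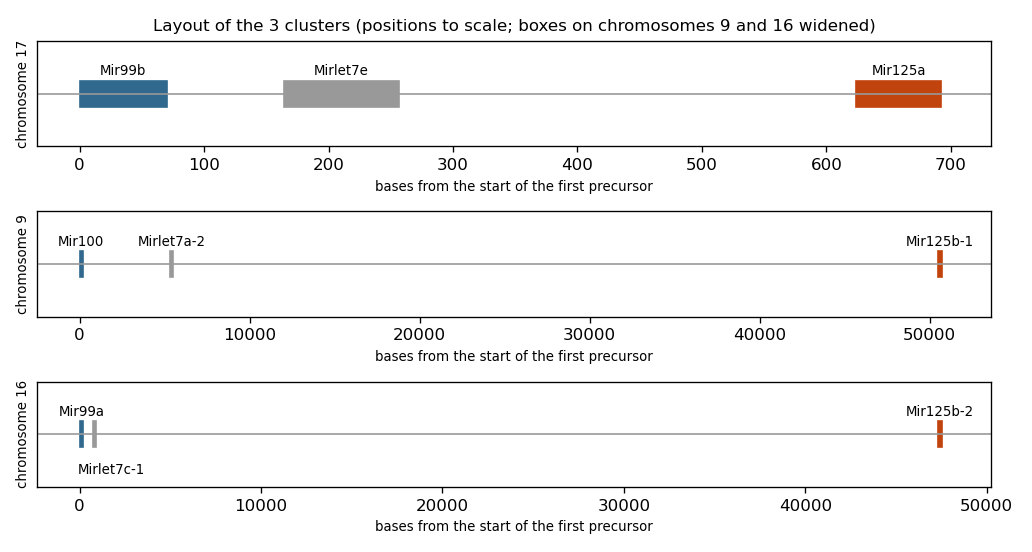
Layout of the 3 clusters, with the distance in bases from the start of the first precursor on the x axis of each panel and 1 box for each precursor. Positions are to scale and boxes on chromosomes 9 and 16 are widened. The chromosome 17 cluster spans 692 bases, against 50578 on chromosome 9 and 47408 on chromosome 16.

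Libraries held 18127265 to 19493731 small RNA tags in ET1-treated cells, against 18972157 to 20895432 in untreated cells. Known miRNAs took 22.6% to 25.5% of the tags in ET1-treated cells and 30.1% to 45.6% in untreated cells. Ribosomal RNA took 7.12% to 11.0% of the tags in ET1-treated cells and 3.22% to 5.63% in untreated cells. Levels are therefore given as counts scaled to the total of known miRNA tags (CPM), adjusted by edgeR's TMM factors, which set most miRNAs level between libraries. These factors were 1.08 to 1.18 in ET1-treated cells and 0.816 to 0.955 in untreated cells, so direction words rest on this scaling. In RNA from whole cultures, fewer cells of a type and less RNA per cell cannot be told apart. Summed levels of the smooth muscle list, led by miR-143-3p, were 12964 to 15534 CPM in ET1-treated and 20367 to 27744 CPM in untreated cells, and of its 4 miRNAs 3 could be tested and none passed. The second marker, miR-145a-5p, overlapped between groups, at 2104 to 2683 CPM in ET1-treated and 2116 to 3128 CPM in untreated cells. For the endothelial list of miR-126a arms the sums were 114 to 163 CPM in ET1-treated and 1107 to 1883 CPM in untreated cells, and 1 of the 2 miRNAs fell. For the leukocyte list they were 36.3 to 40.6 CPM in ET1-treated and 236 to 323 CPM in untreated cells, and of its 4 miRNAs 2 could be tested and 1 fell. That difference was miR-150-5p alone, at 24.7 ± 4.59 CPM in ET1-treated and 270.4 ± 51.2 CPM in untreated cells (SD, n = 3 each). miR-223-3p had a log2 fold change of 0.29, and miR-142a-3p had 1.88, 2.96 and 1.40 CPM in ET1-treated cells, against 0, 0.71 and 1.01 CPM in untreated cells. The red cell list of miR-451a and the miR-144 arms summed to 38.3 to 303 CPM in ET1-treated and 48.9 to 673 CPM in untreated cells. It leaves out miR-486, which red cells and muscle are known to express and which is named here after its values were seen. The joint row of miR-486a-5p and miR-486b-5p rose, with 823 ± 362 CPM in ET1-treated and 154 ± 77.8 CPM in untreated cells (SD, n = 3 each; log2 fold change 2.41, adjusted p = 0.024 in edgeR). The 3p arms miR-486a-3p and miR-486b-3p had log2 fold changes of 1.93 and 1.90 without overlap, each with an adjusted p of 0.079 in edgeR. Epithelial and Sertoli miRNAs summed to 711 to 2035 CPM in ET1-treated and 1027 to 1672 CPM in untreated cells. Germ cell miRNAs summed to 830 to 4779 CPM in ET1-treated and 403 to 1212 CPM in untreated cells. The highest sum was mostly miR-871-3p, at 4443 CPM in ET1 library 1. All 6 germ cell miRNAs could be tested, 1 had a negative log2 fold change, and their median was 1.47. Within the red cell, epithelial and Sertoli, and germ cell lists, which do not hold miR-486, no tested miRNA passed. None of these list members was at 0 in every library, and their part in the results below was not tested.

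Both families were abundant in PTM cells, and the 4 leading guides, miR-125b-5p, miR-99a-5p, miR-99b-5p and miR-125a-5p, ranked 10, 13, 16 and 18 among the known miRNAs by mean level. None of the 9 miRNAs passed the test between ET1-treated and untreated cells. Without TMM factors the 9 miRNAs together took 6.90% ± 0.58 of known miRNA tags in ET1-treated cells and 7.36% ± 0.83 in untreated cells (SD, n = 3 each). With TMM factors their sums were 55557 to 65828 CPM in ET1-treated and 75925 to 87723.5 CPM in untreated cells, which do not overlap. The size of the difference in the total thus depends on the scaling. The RefSeq sequences of the 9 are 22 to 24 bases long, and levels are not divided by length. Lengths of the tags themselves were not examined. How well each sequence is captured was not measured.

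Mean levels ran from 29.9 to 15396 CPM over the members in ET1-treated cells and from 37.8 to 20737 CPM in untreated cells. In ET1-treated cells miR-125b-5p, miR-99a-5p and miR-99b-5p overlapped at the top, and miR-125a-5p lay below all of them. In untreated cells miR-125a-5p had the highest mean, and all 4 guides overlapped. miR-125b-1-3p and miR-100-5p came next and overlapped in both groups. Below them miR-99b-3p, miR-125a-3p and miR-125b-2-3p stood apart from their neighbours in both groups. miR-100-5p, a guide arm, thus overlapped in level with miR-125b-1-3p, a passenger arm from the same chromosome 9 locus. Within libraries miR-125b-1-3p was the higher in all 3 ET1 libraries, and miR-100-5p was the higher in 2 of the 3 untreated ones.

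**Figure D2:**
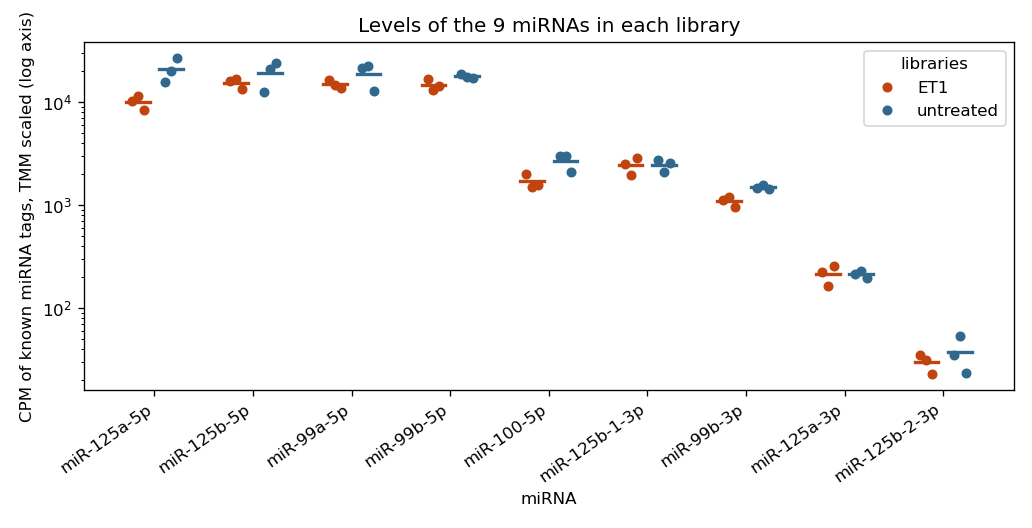
Level of each of the 9 miRNAs in every library, in CPM of known miRNA tags with TMM scaling (log axis), ET1-treated libraries to the left of untreated ones; points are libraries and bars are group means. miR-125a-5p sits between 8407 and 11509.6 CPM in ET1-treated cells, below all 3 untreated libraries.

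The edgeR quasi-likelihood test called 11 of 616 known miRNAs at an adjusted p under 0.05 (Benjamini-Hochberg over all tested), which is 1.79%, with 8 higher and 3 lower in ET1-treated cells. With library sizes alone, without TMM factors, the calls were 38 higher and 3 lower. None of the 9 members was among them by edgeR, DESeq2 or limma-voom, and 1 of the 9 had an unadjusted p under 0.05 in edgeR. The log2 fold change of ET1 over untreated was negative for 8 of the 9, with a median of -0.33, where the median of all 616 was 0.0058 and 305 were negative. With library sizes alone 3 of the 9 were negative and their median was 0.053, against 0.37 for all 616. The median of the members lay below that of all miRNAs under both scalings. This is 1 result and not 2, since a change of scaling shifts all fold changes by about the same amount. The 9 also include arms of the same hairpins, so they are not separate observations. Groups did not overlap for 4 members, miR-99b-5p, miR-99b-3p, miR-100-5p and miR-125a-5p, all lower in ET1-treated cells. Among all 616 miRNAs 23.5% did not overlap and 11.0% did so with the lower values in ET1-treated cells. Without TMM factors only miR-125a-5p did not overlap, where the share of all miRNAs lower in that way was 5.03%.

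miR-125a-5p, the guide of the chromosome 17 miR-125 gene, had the largest log2 difference of the 9 with all 6 libraries, though without untreated library 3 it had -0.80 and miR-100-5p -0.81. It had 10329.7, 11509.6 and 8407 CPM in ET1-treated cells, against 15608, 19925 and 26677 CPM in untreated cells. All 3 ET1 libraries lay below all 3 untreated libraries, and untreated library 3 was the highest. Its means were 10082 ± 1566 CPM in ET1-treated and 20737 ± 5579 CPM in untreated cells (SD, n = 3 each), a level 2.06-fold lower with ET1. The log2 fold change was -1.04 (SE 0.31, 95% interval -1.71 to -0.37), with an unadjusted p of 0.0049 and an adjusted p of 0.086 in edgeR, so it missed the threshold. Over the 15 alternative settings the adjusted p ran from 0.061 to 0.48 and the log2 fold change from -1.48 to -0.69. The 0.48 came from edgeR with the share of known miRNA tags as a covariate, a share that does not overlap between the groups. Leaving out 1 library at a time gave -1.20 to -0.80.

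miR-125b-5p, the other miR-125 guide and the sum of the chromosome 9 and 16 genes, overlapped between groups. It had 16063, 16685 and 13442 CPM in ET1-treated cells, against 12422, 20889 and 23746 CPM in untreated cells. Untreated library 1 was the lowest of all 6 and untreated library 3 the highest. The log2 fold change was -0.30 (SE 0.32, 95% interval -0.98 to 0.37; adjusted p = 0.67, edgeR). The interval runs from a fold change close to that of miR-125a-5p to a higher level with ET1.

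miR-99a-5p and miR-99b-5p, the abundant miR-99/100 guides, had similar mean levels in both groups. miR-99a-5p had 16571, 14783 and 13796 CPM in ET1-treated cells, against 21639, 22413 and 12799.5 CPM in untreated cells. Untreated library 3 was the lowest of the 6, below all ET1 libraries, and the groups overlapped (log2 fold change -0.33, 95% interval -0.99 to 0.33, adjusted p = 0.63 in edgeR). miR-99b-5p had 16949, 13084 and 14218 CPM in ET1-treated cells, against 18783, 17532 and 17028 CPM in untreated cells. Its groups did not overlap, though the gap between ET1 library 1 and untreated library 3 was small beside the spread of either group (log2 fold change -0.27, 95% interval -0.87 to 0.34, adjusted p = 0.67 in edgeR).

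miR-100-5p, the rare guide of that family, had 2023, 1489 and 1589 CPM in ET1-treated cells, against 2979, 3028 and 2088 CPM in untreated cells. ET1 library 1 and untreated library 3 came within a few percent of each other. The log2 fold change was -0.67 (SE 0.33, 95% interval -1.37 to 0.035), with an adjusted p of 0.31 in edgeR.

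Among the 3p arms, miR-99b-3p had 1113, 1199.7 and 965 CPM in ET1-treated cells, against 1476, 1576 and 1432 CPM in untreated cells. Its groups did not overlap (log2 fold change -0.45, 95% interval -1.14 to 0.23, adjusted p = 0.49 in edgeR). miR-125b-1-3p had 2520.4, 1976 and 2856 CPM in ET1-treated cells, against 2766, 2077 and 2573 CPM in untreated cells. The log2 fold change was -0.012, and the groups lay across each other.

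miR-125a-3p had 224, 165 and 260.1 CPM in ET1-treated cells, against 216, 230.4 and 196 CPM in untreated cells. The log2 fold change was 0.016, so the passenger arm of the miR-125a hairpin was at about the same mean level in both groups. miR-125b-2-3p was the rarest of the 9, with 188, 148 and 131 counts in ET1-treated cells, against 252, 382 and 141 counts in untreated cells. It overlapped between groups, with 29.9 ± 6.28 CPM in ET1-treated and 37.8 ± 15.3 CPM in untreated cells (SD, n = 3 each; log2 fold change -0.34, adjusted p = 0.74 in edgeR).

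**Figure D3:**
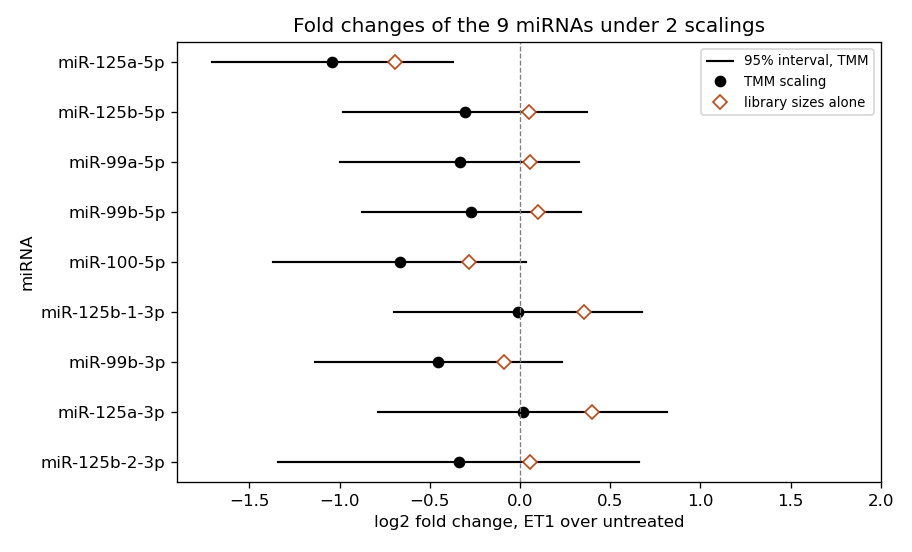
log2 fold change of ET1 over untreated for each of the 9 miRNAs. Black points are estimates with TMM factors and lines are 95% intervals, while open diamonds are estimates with library sizes alone. The interval of miR-125a-5p ends at -0.37, and the other 8 cross 0.

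In the authors' deposited table, which compares pooled counts of each group without replicate error, 8 of the 9 members had a q-value under 0.05, with 4 marked up and 5 down. The share of all miRNAs with such a q-value was not taken, so the 8 of 9 cannot be read as particular to these members. The pooled counts equalled the sums of the libraries for all 9. The log2 ratio of ET1 over untreated in the authors' deposited table was -0.69 for miR-125a-5p, -0.34 for miR-100-5p and 0.37 for miR-125a-3p. These lie nearer to the edgeR estimates with library sizes alone, -0.69, -0.28 and 0.40, than to those with TMM factors. The marks of up and down are thus not on the TMM scale used above. For miR-125b-2-3p the authors' deposited table gave -0.034 with a q-value of 0.177.

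Ratios of pairs within a library do not depend on the scaling between libraries, and 14 pairs were compared. They paired miRNAs of a cluster, of a seed family, the arms of a hairpin, or the 3p arms of the miR-125b genes. With 3 against 3 libraries the smallest 2-sided exact permutation p is 0.1, so none could reach 0.05, and after adjustment over the 14 pairs the smallest value was 0.28. In 5 of the 14 pairs the groups did not overlap, 2 with the higher and 3 with the lower ratio in ET1-treated cells. Each of these 5 holds either miR-100-5p or miR-125a-5p, so they are not separate results. Among all 189420 pairs of tested miRNAs 23.9% did not overlap. That background includes rare miRNAs with wider spread, and pairs matched for level were not compared.

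Within the miR-125 seed family, the ratio of miR-125a-5p to miR-125b-5p was 0.643, 0.690 and 0.625 in ET1-treated cells, against 1.26, 0.954 and 1.12 in untreated cells. Thus miR-125b-5p led in all 3 ET1 libraries, and the 2 guides were near parity in untreated ones. The mean log2 ratio differed by -0.76, with an SD of 0.073 in ET1-treated and 0.20 in untreated cells (exact permutation p = 0.1, adjusted p = 0.28). Leaving out 1 library gave -0.87 to -0.67. Among all pairs 55.0% differed by more than this, but those pairs are not matched for level. As a share of the tags of both guides, miR-125a-5p took 39.5% ± 1.21 in ET1-treated cells and 52.5% ± 3.45 in untreated cells (SD, n = 3 each). The summed guides took 2.89% ± 0.27 of known miRNA tags in ET1-treated and 3.53% ± 1.20 in untreated cells, without TMM factors.

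**Figure D4:**
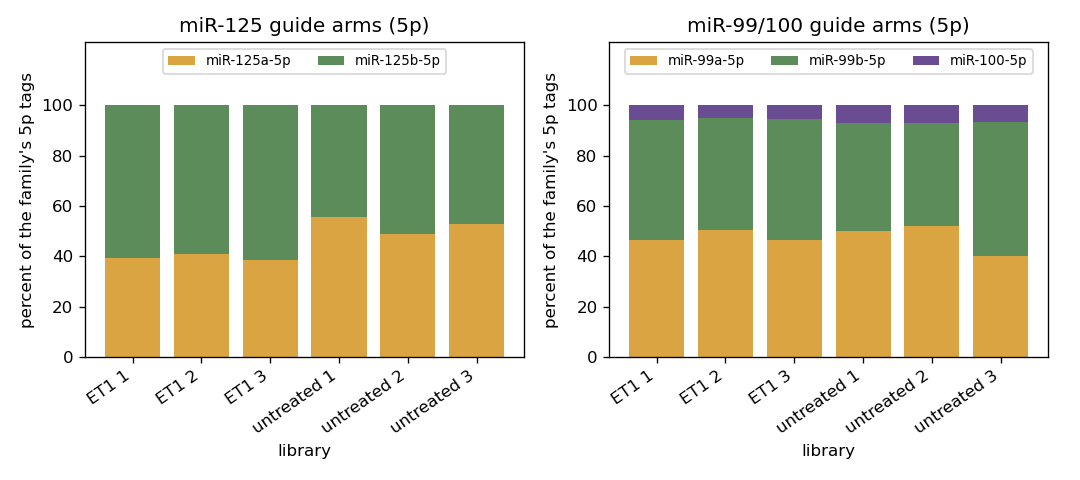
Makeup of the 5p tags of each family in every library, in percent of the family's tags. miR-125a-5p takes 38.5% to 40.8% of miR-125 guides in ET1-treated cells and 48.8% to 55.7% in untreated cells, while miR-100-5p takes 5.07% to 5.69% and 6.54% to 7.05% of its family.

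Within the miR-99/100 seed family, the ratio of miR-99a-5p to miR-99b-5p was 0.978, 1.13 and 0.970 in ET1-treated cells, against 1.15, 1.28 and 0.752 in untreated cells. These groups overlapped, with a difference in mean log2 ratio of -0.016 (exact permutation p = 0.9). The ratio of miR-99a-5p to miR-100-5p was 8.19, 9.93 and 8.68 in ET1-treated cells, against 7.26, 7.40 and 6.13 in untreated cells. That of miR-99b-5p to miR-100-5p was 8.38, 8.79 and 8.95 in ET1-treated cells, against 6.30, 5.79 and 8.16 in untreated cells. Both were higher in every ET1 library, by 0.37 and 0.38 on the log2 scale (exact permutation p = 0.1 each, adjusted p = 0.28). They share miR-100-5p, so they are not separate results, and 77.2% and 76.2% of all pairs differed by more.

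Between the arms of the miR-125a hairpin, the 5p to 3p ratio was 46.1, 69.5 and 32.3 in ET1-treated cells, against 72.1, 86.5 and 136 in untreated cells. ET1 library 2 and untreated library 1 were close, and the others lay well apart. The difference was -1.01 on the log2 scale, a ratio 2.02-fold lower with ET1, and 43.1% of all pairs differed by more (exact permutation p = 0.1, adjusted p = 0.28). Leaving out 1 library gave -1.29 to -0.74. The arms of the neighbouring miR-99b hairpin gave 15.2, 10.9 and 14.7 in ET1-treated cells, against 12.7, 11.1 and 11.9 in untreated cells, which overlapped (difference 0.18, exact permutation p = 0.4). For miR-125b-5p over miR-125b-1-3p the values were 6.37, 8.44 and 4.71 in ET1-treated cells, against 4.49, 10.1 and 9.23 in untreated cells, and these overlapped too. Of the miR-125b genes, the chromosome 9 arm outnumbered the chromosome 16 arm in every library, 71.2, 63.0 and 124 to 1 in ET1-treated cells, against 77.7, 38.4 and 108 to 1 in untreated cells (difference 0.26, exact permutation p = 0.7).

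Within the chromosome 17 cluster, miR-99b-5p over miR-125a-5p was 1.64, 1.14 and 1.69 in ET1-treated cells, against 1.20, 0.880 and 0.638 in untreated cells. The groups overlapped through ET1 library 2 and untreated library 1 (difference 0.74, exact permutation p = 0.2, adjusted p = 0.47). The ratio of miR-125a-5p to let-7e-5p, the guide between them, was 0.656, 0.767 and 0.852 in ET1-treated cells, against 0.776, 0.832 and 1.90 in untreated cells. Its difference of -0.50 was -0.091 without untreated library 3. On chromosome 9, miR-100-5p over miR-125b-1-3p was 0.803, 0.754 and 0.556 in ET1-treated cells, against 1.08, 1.46 and 0.812 in untreated cells. These groups were apart by a narrow margin (difference -0.64, exact permutation p = 0.1, adjusted p = 0.28), and 61.3% of all pairs differed by more. On chromosome 16, miR-99a-5p over miR-125b-2-3p was 468, 471 and 598 in ET1-treated cells, against 608, 414 and 539 in untreated cells, with a difference of -0.014 (exact permutation p = 0.9). Among all pairs 99.1% differed by more than that one. Untreated library 3 had the smallest share of known miRNA tags of the untreated group. In CPM with TMM factors it was the lowest of that group for miR-99a-5p, miR-99b-5p, miR-99b-3p, miR-100-5p, miR-125a-3p and miR-125b-2-3p, and for let-7e-5p, let-7a-5p and let-7c-5p. It was the highest of the group for miR-125a-5p and miR-125b-5p, and lay between the others for miR-125b-1-3p. Without TMM factors it was instead the highest for miR-99b-3p and miR-125b-1-3p, and lay between the others for miR-99b-5p.

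**Figure D5:**
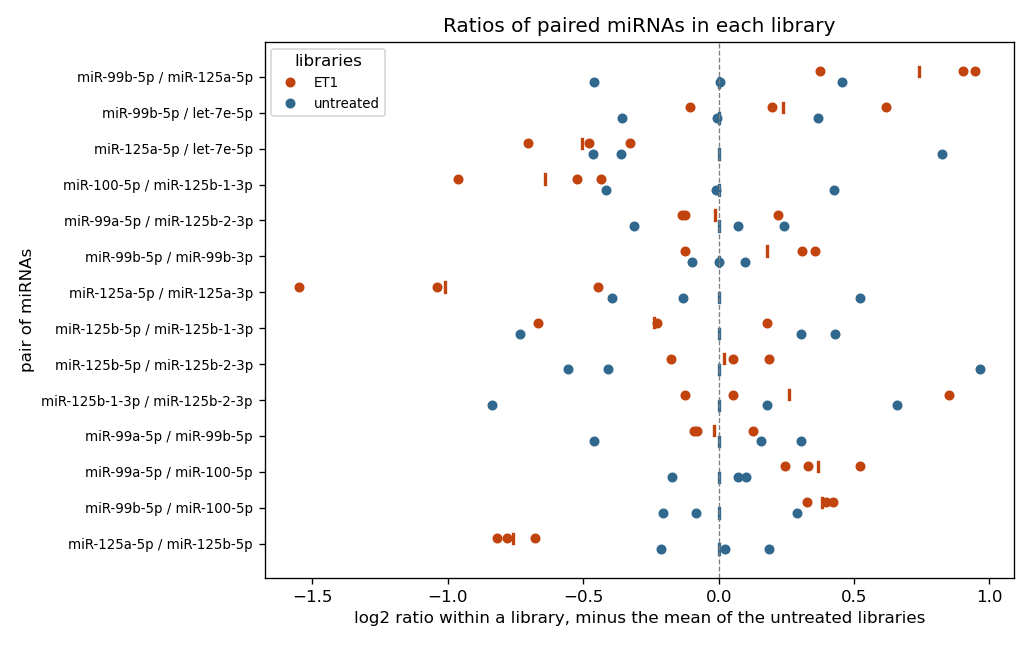
Ratio of each of the 14 pairs in every library as a log2 ratio minus the mean of the untreated libraries, with ET1-treated libraries in orange and untreated ones in blue; short bars are group means. The groups do not overlap in 5 pairs, among them miR-125a-5p over miR-125b-5p, whose mean differs by -0.76.

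The other miRNAs of the 3 clusters were the let-7 arms and the remaining 3p arms of miR-99a and miR-100, 8 in all. All 8 were tested, none passed, 6 had a negative log2 fold change and their median was -0.34. let-7 miRNAs are known as brakes on growth genes, and let-7a-5p and let-7c-5p are also made from genes outside these clusters. let-7e-5p averaged 13539 ± 3198 CPM in ET1-treated and 19385 ± 4980 CPM in untreated cells (SD, n = 3 each; log2 fold change -0.52, adjusted p = 0.39 in edgeR). For let-7a-5p the log2 fold change was -0.94 (adjusted p = 0.11 in edgeR), and for let-7c-5p it was -0.44 (adjusted p = 0.44 in edgeR).

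Of 3 relatives in seed or sequence, 1 fell and none rose. miR-351-5p, a rodent miRNA of the X chromosome with the miR-125 seed, averaged 2568 ± 1395 CPM in ET1-treated and 4960 ± 937 CPM in untreated cells (SD, n = 3 each; log2 fold change -0.95, adjusted p = 0.20 in edgeR). miR-10b-5p, which lies in a Hox gene cluster and has a seed close to that of miR-99/100, fell (log2 fold change -1.85, adjusted p = 0.026 in edgeR). miR-10a-5p, its counterpart in another Hox cluster, had a log2 fold change of -1.18 (adjusted p = 0.18 in edgeR).

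The miRNAs most like each guide were found by the root mean square distance between log2 CPM profiles over the 6 libraries, each centred on its own mean, among 607 miRNAs that are no members. For miR-99a-5p the nearest was let-7c-5p, which has a gene beside it on chromosome 16, at a distance of 0.12 where the median of all was 0.65; miR-23b-3p was as close. For miR-99b-5p they were miR-106b-3p at 0.092 and miR-151-5p at 0.096. For miR-100-5p they were miR-103-3p at 0.11 and miR-382-5p at 0.13. For miR-125a-5p they were miR-24-3p at 0.20, miR-7002-5p at 0.21 and miR-30d-5p at 0.24, where the median was 0.79. Its own profile also varied most, with a root mean square deviation from its mean of 0.57, against 0.18 to 0.40 for the other guides. For miR-125b-5p the nearest was miR-6958-3p at 0.19, with a mean of 2.51 CPM in ET1-treated and 2.80 CPM in untreated cells. Among members, miR-125b-1-3p and miR-125a-3p lay 0.18 apart, and miR-99a-5p and miR-125b-2-3p, of the chromosome 16 cluster, 0.20 apart. In the chromosome 17 cluster miR-99b-5p lay 0.19 from miR-99b-3p, 0.22 from miR-125a-3p and 0.49 from miR-125a-5p, and in the chromosome 9 cluster miR-100-5p lay 0.43 from miR-125b-1-3p. These distances are descriptions over the same 6 libraries, whose depth and scaling every profile shares.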

How the data were processed

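The deposited table gives raw counts of tags per named small RNA for 3 ET1-treated and 3 untreated libraries, and the submitters' processing notes name Bowtie2 and the mm10 build without giving their role. Adapter trimming, tag assignment to several loci and counting rules are not given in the sources used here. The authors' deposited RPM values matched counts over all tags within 0.998 to 1.003 where a count was at least 50, hold 0.001 for a count of 0, and served as an alternative for the pair ratios. The authors' deposited log2 ratios, p-values and q-values come from pooled counts and were used only where they are named. No column belonged to a sample outside the 6. The 4 aggregate rows (44.3% to 61.4% of tags) were left out.

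edgeR 4.0.16 (R 4.3.3) fitted a quasi-likelihood model on the 616 known miRNAs that passed filterByExpr, with TMM factors over known miRNAs and Benjamini-Hochberg adjustment over all of them, at 0.05. Ratios added 0.5 to each count and were tested by exact permutation (scipy 1.17.1). DESeq2 1.42.0 and limma 3.58.1 were alternatives. The scripts were tested on simulated data. The text names the 9 miRNAs, the other arms of their clusters, their seed relatives, marker lists and the nearest profiles. The members and lists were chosen with earlier results of these data known. Sequences are RefSeq's for GRCm38.p6 and gene annotation is GENCODE's for GRCm38.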

Additional observations from a re-analysis of the deposited data

How the results depend on the processing

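No member passed at an adjusted p under 0.05 in any of the 15 alternatives, which include DESeq2 and limma-voom beside edgeR fits. Of the members' recomputed fold changes 114 kept their direction and 21 turned. With library sizes alone the log2 fold changes were 0.054 for miR-99a-5p, 0.10 for miR-99b-5p, 0.050 for miR-125b-5p, 0.36 for miR-125b-1-3p and 0.053 for miR-125b-2-3p. With the miRNA share as a covariate they were 0.44 for miR-99a-5p and 0.77 for miR-125b-2-3p. That share was 22.6% to 25.5% in ET1-treated and 30.1% to 45.6% in untreated cells, without overlap. A fit with this covariate therefore cannot separate it well from ET1. A filter of 10 CPM gave 0.042 for miR-125b-1-3p. For miR-125a-3p they were -0.0059 with DESeq2 and with its size factors in edgeR, -0.0044 with limma-voom, -0.055 with no filter and -0.49 with all named small RNAs fitted together; the cause was not tested. Leaving out 1 library gave -0.15 to 0.15 for miR-125a-3p, -0.14 to 0.094 for miR-125b-1-3p and -0.56 to 0.0066 for miR-125b-2-3p. Of the recomputed pair differences 113 kept their direction and 13 turned, all by leaving out 1 library. The other settings were 1 count added, the deposited RPM values and a paired sign-flip test. These leave the differences almost or wholly unchanged, so they could hardly turn a direction and add no support. Ranges without 1 library were -0.17 to 0.11 for miR-99a-5p over miR-125b-2-3p and -0.26 to 0.50 for miR-125b-5p over miR-125b-2-3p. They were -0.16 to 0.59 for miR-125b-1-3p over miR-125b-2-3p and -0.25 to 0.14 for miR-99a-5p over miR-99b-5p.

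Over all miRNAs the 11 calls became 41 with library sizes alone, 39 with DESeq2, 5 with limma-voom, 37 with no filter, 0 with all named small RNAs or with the covariate, and 2 to 30 without 1 library. With a replicate block, 21 were called, miR-125a-5p had -1.02 (adjusted p = 0.072) and miR-125a-3p -0.0055. Same-numbered libraries had correlated deviations of 0.281, 0.063 and 0.261, so the numbers were not taken to pair the samples, though each library correlated best with its own number. With 3 libraries a group, wide intervals limit every comparison, and the 131 to 382 counts of miR-125b-2-3p limit its ratios further.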

Other observations

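The count table also lists precursor families from Rfam, which overlap in kind with the mature miRNAs and were not tested. The lin-4 precursor family, to which miR-125 belongs, had 2483, 2079 and 1840 tags in ET1-treated cells, against 3029, 4407 and 4062 tags in untreated cells. As CPM of known miRNA tags without TMM factors these were 537, 474 and 381 in ET1-treated cells, against 373, 509 and 651 in untreated cells, which overlap. The mir-10 precursor family, to which miR-99/100 belongs, had 194, 156 and 114 CPM in ET1-treated cells, against 274, 258 and 178 in untreated cells.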
